A study of Mus musculus with 4 samples.

Results

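Cells set their internal pH with a small set of proteins that move protons or bicarbonate across membranes, and the genes for these proteins were followed here in mouse embryonic stem cells (ESCs) given lactate. The genes were taken by symbol, as all names that begin with Atp6v, all numbered members of Slc9a and Slc4a, and all numbered members of Car, without pseudogenes and without Car9. This gave 57 of the 55335 genes in the tables, of which 23 belong to Atp6v, 9 to Slc9a, 10 to Slc4a and 15 to Car. One of the 23, Atp6v1fnb, matches by name as the neighbour of Atp6v1f and is not an established subunit of the pump.

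The RNA came from AB2.2, a mouse ESC line grown on mouse embryonic fibroblast (MEF) feeder cells. Control and lactate cultures alike received CHIR99021 at 3 μM, PD0325901 at 1 μM and leukemia inhibitory factor at 1000 U/ml, in medium with 15% serum. RNA-seq was made from 2 control libraries and from 2 libraries after 24 h with 50 mM lactate. The labels do not say whether libraries of a group came from separate cultures, so p-values measure the spread between these libraries, which may be technical. The comparison asks which of these genes changed in their RNA level when lactate was supplied.

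The vacuolar ATPase (V-ATPase) is a rotary pump that spends ATP to drive protons into lysosomes, endosomes and the Golgi. Its V1 sector lies in the cytosol and hydrolyses ATP, and its V0 sector lies in the membrane and carries the protons. Slc9a genes encode Na+/H+ exchangers (NHEs) of the cell surface or of organelles, and Slc4a genes encode bicarbonate carriers. Carbonic anhydrases interconvert carbon dioxide and bicarbonate, and a few members of the family lack this activity. Lactate enters and leaves cells together with a proton through monocarboxylate transporters, which are encoded by Slc16a genes.

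Reads counted on genes numbered between 18067562 and 19077885 per library, and the 57 genes held between 0.172% and 0.215% of them. The share of mitochondrial genes was 5.48% in control replicate 1 and 5.72% in lactate replicate 1, but 2.43% in control replicate 2 and 2.82% in lactate replicate 2. All 12 pluripotent cell markers were above the filter on low counts, and their summed level was 6342 and 6762 CPM (counts scaled to library size) in the control and 6685 and 7504 CPM in the lactate libraries. Fibroblast markers were detected in both groups, and 14 of 15 passed the filter with a summed level of 731.4 and 978.1 CPM in the control and 731.1 and 784.4 CPM with lactate, and none of the 15 was at 0. Of 8 markers of primitive endoderm, 6 passed, and all 6 were higher with lactate, where 9522 of all 18661 genes tested were higher. The summed level over the 8 was 17.0 and 15.2 CPM in the control and 28.5 and 21.1 CPM with lactate. The part of feeder or endoderm cells in the results was not tested, and in bulk RNA fewer cells of a type and less RNA per cell cannot be told apart.

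No member was called as changed. A call needed a change of more than 2-fold and an adjusted p under 0.05, from the quasi-likelihood test of edgeR with Benjamini-Hochberg adjustment over the 18661 genes left by a filter on low counts. By this rule 0.552% of all genes tested were called higher and 0.348% lower with lactate, which makes 0.900% in either direction. Of the 57 members 42 passed the filter, and 0 of these were called by edgeR in either direction, nor were any by DESeq2. At an unadjusted p under 0.05, edgeR placed 8 of the 42 higher with lactate (19.0%, beside 11.7% of all genes tested) and 1 lower (2.38%, beside 11.4%). At an adjusted p under 0.10, 3 members were higher (7.14%, beside 3.78%) and 0 were lower (beside 3.89%, which makes 7.67% of all genes in either direction). The 2 lactate values were both higher than the 2 control values for 19 of the 42 (45.2%, beside 27.0% of all genes tested) and both lower for 2 (4.76%, beside 25.9%). Car6 and Slc9a7 among the 8, and these with Atp6v1c2 among the 19, were tested only through their lactate libraries. Part of these counts therefore follows from the filter.

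The median log2 fold change of lactate over control was 0.17 over the 42 members and 0.01 over all genes tested. It was 0.23 for Atp6v, 0.22 for Slc9a, 0.18 for Slc4a and 0.07 for Car. All 4 medians moved by over 1.5 times with single libraries. Without lactate replicate 2 that of Atp6v was 0.0025, without lactate replicate 1 that of Car was −0.10, and without control replicate 2 that of Slc9a was 0.37 and that of Slc4a 0.33. Atp6v1c2, Car6 and Slc9a7 passed the filter only through the lactate libraries, as fewer than 2 control libraries reached its limit of 0.533 CPM. No control library reached it for Atp6v1c2 and Car6, so these 2 had to be higher with lactate in order to be tested. Slc9a7 reached it in 1 control library and needed at least 1 lactate library. The other 39 reached the limit in both control libraries.

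**Figure D1:**
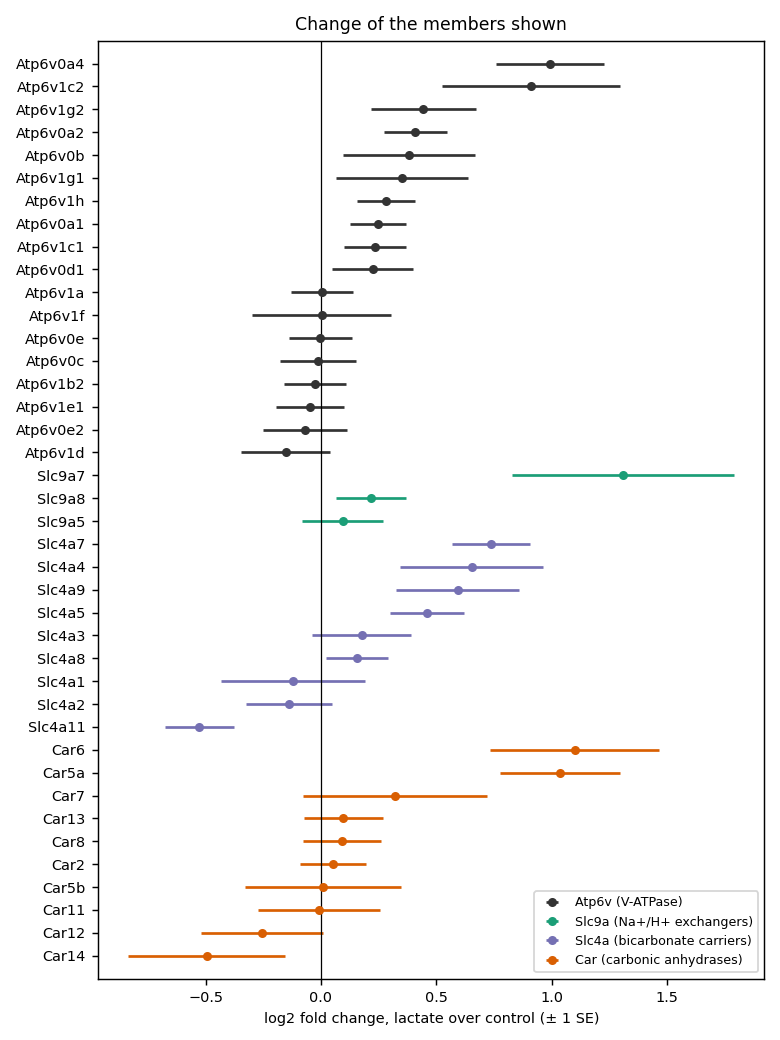
Log2 fold change of lactate over control for 40 of the 42 members tested, by family, with bars of 1 standard error from edgeR. The points run from −0.53 for Slc4a11 to 1.31 for Slc9a7, and none of them was called.

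The V-ATPase genes were the most expressed of the 4 families. Levels are compared between genes as FPKM, which is scaled for transcript length. Summed over the 23 Atp6v genes, FPKM was 946.5 and 1028 in the control and 995.7 and 1212 with lactate, so the groups overlapped. By comparison, the sums were 55.1 and 54.7 in the control libraries for Slc9a, 64.3 and 66.9 for Slc4a and 51.2 and 49.2 for Car. These 3 sums were 65.1 and 63.3, 67.5 and 78.5, and 57.2 and 57.4 in the lactate libraries, each above both control libraries. For Slc4a the nearest sums of the 2 groups were 66.9 and 67.5. FPKM are used as deposited, without the scaling of CPM. In fits of log2 FPKM with 1 or 0.1 added, the median change over all genes was itself 0.0504 or 0.0788, beside 0.01 in the main fit.

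Atp6v0c, the proteolipid that forms the rotating ring of V0, had the highest level of all members, with an FPKM of 258.5 and 172.9 in the control and 221.6 and 207.6 with lactate. Atp6v1f, of the central stalk of V1, followed with 77.3 and 124.5 in the control and 77.5 and 132.6 with lactate. Atp6v1a, the subunit that holds the catalytic sites, had 92.0 and 101.9 in the control and 96.1 and 103.3 with lactate. The groups overlapped in all 3 genes. RSEM, which shares out reads that match several places, assigned Atp6v0c 2841 and 2545 expected counts in the control, above its 1844 and 1971 counted reads, so the level of Atp6v0c is uncertain. Atp6v1b2 and Atp6v1e1 had control means of 90.6 and 77.0, and Atp6v0b, Atp6v0e, Atp6v1g1 and Atp6v0d1 had means between 55.1 and 76.2. Below them came Atp6v1h (46.7), Atp6v1c1 (34.1), Atp6v1d (31.7), Atp6v0a1 (20.1), Atp6v0a2 (8.36) and Atp6v0e2 (7.27), which made 15 genes with a control mean FPKM above 1.

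**Figure D2:**
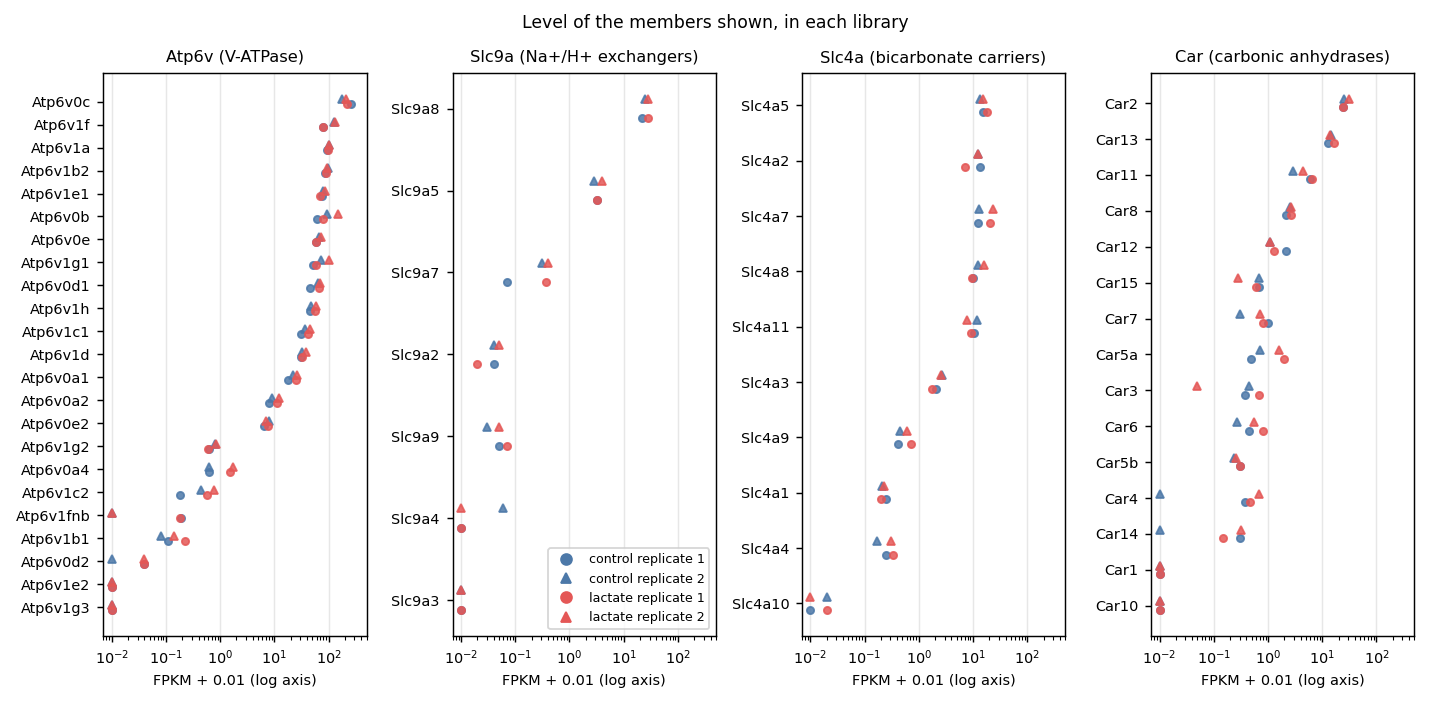
FPKM of 55 of the 57 members in each library, on a log axis after adding 0.01, in 4 panels by family and sorted by the control mean. The 15 V-ATPase genes with a control mean above 1 lie between 6.56 and 258.5, while no value shown for the other families exceeds 31.0.

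Several subunits have more than 1 gene, and in most of these a single gene supplied nearly all of the RNA. In the control libraries Atp6v1b2 made up 99.9% of the FPKM for subunit B, Atp6v1c1 99.2% of that for C, Atp6v0d1 about 100% of that for d and Atp6v1g1 98.9% of that for G. Their paralogs Atp6v1b1, Atp6v1c2, Atp6v0d2, Atp6v1g2 and Atp6v1g3, which are known from kidney, bone or brain, had at most 0.83 FPKM in any library. Atp6v1e2, the testis form of subunit E, and Atp6v1g3 had no read in any library. For subunit e, Atp6v0e made up 89.7% ± 0.51 and Atp6v0e2 10.3% ± 0.51 (SD, n = 2).

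Subunit a, which anchors the pump and is thought to direct it to its compartment, was the one with a mixture of genes. It is encoded by Atp6v0a1, Atp6v0a2, Atp6v0a4 and Tcirg1, the last of which makes the a3 form and is not a member by name. Tcirg1 made up 48.6% and 39.8% of the FPKM for subunit a in the control libraries but 26.8% and 27.2% of it with lactate. Atp6v0a1 made up 35.1% and 42.1% in the control and 48.6% and 47.2% with lactate, and Atp6v0a2 15.2% and 16.9% in the control and 21.7% and 22.4% with lactate. Atp6v0a4 held 1.17% and 1.18% of the control and 2.96% and 3.19% of the lactate level. For all 4 genes the shares did not overlap between the groups. The 4 shares are parts of one sum, so a fall in one raises the others and they are not separate observations. In CPM, 27.0% of all genes tested were higher in both lactate libraries and 25.9% lower. With 2 libraries against 2 a two-sided exact permutation test cannot give a p below 0.333. Taken from the raw counts, which are not scaled for length, the mean share of Tcirg1 was 27.9% in the control and 18.8% in the lactate libraries.

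**Figure D3:**
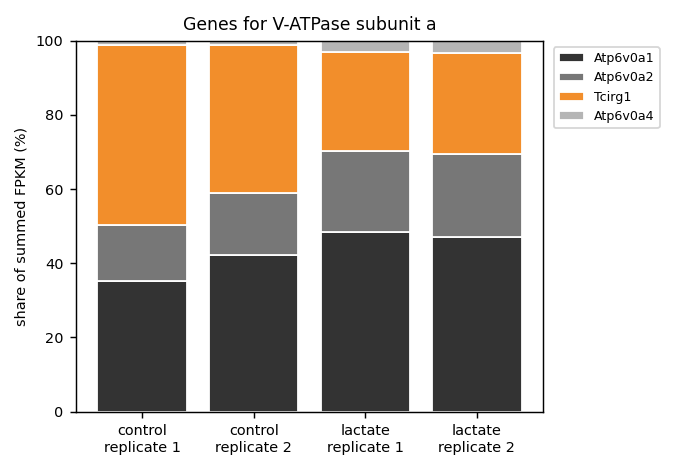
Share in percent of the summed FPKM of the 4 genes for V-ATPase subunit a, as 1 stacked bar for each library. The Tcirg1 segment spans 39.8% to 48.6% of the control bars and about 27% of both lactate bars.

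Among single V-ATPase genes, the largest value was that of Atp6v0a4, the form of subunit a known from acid-secreting cells of the kidney (chromosome 6 of GRCm38, 38048483 to 38124586). It had 36 and 44 reads in the control and 88 and 80 with lactate, so both lactate libraries were higher. The log2 fold change was 0.99 ± 0.23 (SE, adjusted p = 0.0826, edgeR). The value was 1.10 without lactate replicate 2, where edgeR called the gene (adjusted p = 0.0369), and between 0.71 and 1.29 over the 15 alternatives, with adjusted p-values from 0.000578 to 0.259 across edgeR, DESeq2 and limma. D630045J12Rik overlaps Atp6v0a4 on the same strand and had 511 and 438 reads in the control and 479 and 392 with lactate.

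Atp6v0a2, a form of subunit a of the Golgi and endosomes (chromosome 5, 124628576 to 124724455), had 637 and 748 reads in the control and 902 and 1041 with lactate. The groups did not overlap, 4930404A12Rik overlaps the gene on the opposite strand with 68 to 113 reads, and the log2 fold change was 0.41 ± 0.14 (SE, adjusted p = 0.150, edgeR). Atp6v0a1, the form found in most tissues and in neurons, had 1065 and 1193 reads in the control and 1386 and 1443 with lactate, a log2 fold change of 0.25 ± 0.12 (SE, adjusted p = 0.288, edgeR). Tcirg1 had 635 and 809 reads in the control and 538 and 609 with lactate, a log2 fold change of −0.41 ± 0.15 (SE, adjusted p = 0.177, edgeR). None of these 3 genes passed the test, and their libraries separated by group with Tcirg1 in the opposite direction. Of all genes tested, 27.0% separated with lactate higher and 25.9% with lactate lower.

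The genes of the catalytic head had values near 0. Atp6v1a had 6037 and 7074 reads in the control and 6611 and 7273 with lactate, a log2 fold change of 0.00 ± 0.13 (SE). Atp6v1b2, the partner of Atp6v1a in the head, had 3865 and 4694 reads in the control and 4275 and 4588 with lactate, which gave −0.03. Atp6v0c, at 1844 and 1971 reads in the control and 1678 and 2336 with lactate, had −0.01. Each of these 3 had overlapping groups. Atp6v1h, a regulatory subunit that is needed for pumping, had the largest value among the V1 genes with an FPKM above 1 that did not overlap, at 0.28 ± 0.13 (SE), from 1283 and 1487 to 1683 and 1871 reads. Atp6v1c1, which joins V1 to V0, had 0.24, and Atp6v0d1, which couples the ring to the stalk, had 0.22. Without control replicate 1 these 2 values were 0.12 and 0.0038, and without control replicate 2 that of Atp6v0d1 was 0.45.

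For Atp6v1f, Atp6v1g1 and Atp6v0b the 2 lactate libraries differed from each other by more than the group means did. Atp6v1f had 524 and 863 reads in the control and 522 and 945 with lactate. Atp6v1g1, a peripheral stalk subunit, had 759 and 1116 in the control and 883 and 1647 with lactate, and Atp6v0b, a second proteolipid of the ring, had 673 and 961 in the control and 780 and 1475 with lactate. In all 3 genes the libraries numbered 2 held more reads, and these are the libraries with the lower mitochondrial share. The part of the mitochondrial share in this difference was not tested. Without lactate replicate 2 the log2 fold change of Atp6v1g1 was −0.12 and that of Atp6v0b −0.10, against 0.35 and 0.38 with all libraries. That fit sets lactate replicate 1 alone beside both control libraries. From control to lactate, Atp6v1g1 went from 43.9 to 47.5 CPM in libraries numbered 1 and from 58.8 to 83.5 CPM in those numbered 2. Atp6v0b went from 38.9 to 42.0 and from 50.6 to 74.8 CPM. Atp6v1f went from 30.3 to 28.1 and from 45.5 to 47.9 CPM. The labels link these libraries only by their number.

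The remaining V-ATPase genes tested were Atp6v1c2 at 0.91, Atp6v1g2 at 0.44, Atp6v0e at −0.00, Atp6v1e1 at −0.05, Atp6v0e2 at −0.07 and Atp6v1d at −0.15 on the log2 scale. Pdia6 overlaps Atp6v1c2 and Nfkbil1 overlaps Atp6v1g2, both on the opposite strand. Atp6v1g2 had 44 to 77 counted reads per library but 9 to 17 expected counts from RSEM, so its level is uncertain. Atp6v1c2 lay just above the filter on low counts at 7 and 10 reads in the control and 14 and 20 with lactate. Atp6v1b1 lay just below it at 2 and 3 reads in the control and 4 and 3 with lactate. Also below it were Atp6v0d2, Atp6v1fnb, Atp6v1e2 and Atp6v1g3, with at most 2 reads in any library.

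Genes of the V-ATPase are known targets of Tfeb and its relatives Tfe3 and Mitf, which bind a palindromic E-box called the CLEAR element. The promoter windows of RefSeq on GRCm38.p6, from 250 bases before to 50 bases after each start, held 39 of the 57 members in 49 windows. The CLEAR core TCACGTGA lay in 3 of the 20 Atp6v windows (15.0%, those of Atp6v0d1, Atp6v0e and Atp6v1a) and in 0.974% of all 32851 windows. The E-box core CACGTG, which each CLEAR core contains, lay in 4 Atp6v windows (20.0%), the fourth being that of Atp6v0b, and in 7.15% of all windows. TGATGNAA, the letters of the CARE element that Atf4 binds, lay in 4 of the 49 member windows (8.16%) and in 3.97% of all. These 4 windows belong to 3 genes, since 2 overlapping windows of Car11 held the same site. Both strands were searched, a match is not evidence of binding, and the windows of Slc4a7 and Car5a held none of the 3 motifs. The lines below show 1 CLEAR core, 1 E-box core and 2 CARE matches with their surroundings, 5′ to 3′ on the strand of the gene, with the motif in capitals. They lie at chr16:44139368-44139407 on the minus strand, chr4:117887344-117887381 on the minus strand, chr8:105566212-105566251 on the minus strand and chr7:45699767-45699803 on the plus strand. The last 3 lie before the annotated gene and the first in an intron of 2 transcripts with an earlier start.
Atp6v1a, CLEAR core: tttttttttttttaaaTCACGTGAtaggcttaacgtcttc
Atp6v0b, E-box core: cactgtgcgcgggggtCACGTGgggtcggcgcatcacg
Atp6v0d1, CARE: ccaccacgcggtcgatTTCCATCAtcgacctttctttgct
Car11, CARE: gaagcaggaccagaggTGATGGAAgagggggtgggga

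The log2 fold changes of the 3 genes with a CLEAR core were 0.22 for Atp6v0d1, −0.00 for Atp6v0e and 0.00 for Atp6v1a, and none was called. The factors themselves had values of either sign, without a call. Tfeb had 839 and 1013 reads in the control and 522 and 656 with lactate, a log2 fold change of −0.73 ± 0.15 (SE, adjusted p = 0.0678, edgeR). Mitf had 763 and 656 reads in the control and 1603 and 1332 with lactate, a log2 fold change of 0.97 ± 0.19 (SE, adjusted p = 0.0631, edgeR). Tfe3 had −0.45, from 1501 and 1429 to 1189 and 1076 reads. For each of the 3 factors the groups did not overlap, where 27.0% of all genes tested were higher in both lactate libraries and 25.9% lower. In DESeq2 the adjusted p was 0.0230 for Tfeb and 0.00291 for Mitf, with changes below the 2-fold limit of a call. Of the 8 genes in the list of these factors and their regulators, 7 were tested, 4 were higher and 3 lower, and 0 were called by edgeR or DESeq2. At an unadjusted p under 0.05, 2 of the 7 were higher (beside 11.7% of all genes tested) and 2 lower (beside 11.4%).

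Among the Na+/H+ exchangers, Slc9a8 (NHE8), of the Golgi and endosomes, had a control mean FPKM of 23.4. It had 1026 and 1393 reads in the control and 1397 and 1562 with lactate. Both lactate libraries were higher once scaled to library size, at a log2 fold change of 0.22 ± 0.15 (SE), which did not pass the test. The nearest libraries of the 2 groups were 73.4 and 75.2 CPM, and the value was 0.054 without control replicate 1 and 0.37 without control replicate 2. Slc9a5 (NHE5) had 0.09.

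Slc9a7 (NHE7), of the trans-Golgi network (chromosome X, 20105754 to 20291807), had only 4 and 12 reads in the control and 23 and 19 with lactate. Its log2 fold change of 1.31 ± 0.48 (SE, adjusted p = 0.179, edgeR) was the largest of the members tested and lay between 0.77 and 2.21 as each library was left out, the lowest being without control replicate 1. The gene was tested only because of its lactate libraries. Of the other exchangers, Slc9a9 lay just below the filter at 4 and 1 reads in the control and 4 and 2 with lactate, Slc9a2 and Slc9a4 had at most 3 reads, and Slc9a3, the exchanger of kidney and gut, had none.

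The bicarbonate carriers held the member with the smallest p. Slc4a7 (NBCn1), which brings sodium and bicarbonate into the cell (chromosome 14, 14702279 to 14799940), had 1318 and 1176 reads in the control and 2348 and 2053 with lactate. Its level was 69.1 ± 10.1 CPM in the control and 115 ± 15.7 CPM with lactate (SD, n = 2), and the groups did not overlap. The log2 fold change was 0.74 ± 0.17 (SE), or 1.67-fold, at an adjusted p of 0.0798 in edgeR. DESeq2 gave an adjusted p of 0.0242, and 1.85% of all genes were higher at an adjusted p under 0.05 in DESeq2 at any size of change. RSEM assigned Slc4a7 1134 and 1051 expected counts in the control and 2050 and 1820 with lactate, so both ways of counting separated the groups.

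Slc4a11, an atypical member that carries protons rather than bicarbonate (chromosome 2, 130684113 to 130697519), had 526 and 590 reads in the control and 417 and 400 with lactate. It was the only member of the 42 that was lower at an unadjusted p under 0.05 in edgeR with all libraries, at a log2 fold change of −0.53 ± 0.15 (SE, adjusted p = 0.115). Without lactate replicate 2 it did not pass that limit. Slc4a5 (NBCe2), a sodium and bicarbonate cotransporter (chromosome 6, 83219828 to 83304945), had 341 and 399 reads in the control and 561 and 511 with lactate, a log2 fold change of 0.46 ± 0.16 (SE, adjusted p = 0.161, edgeR). In both genes the lactate libraries lay on one side of the control libraries.

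Slc4a5, Slc4a2 and Slc4a7 had the highest control levels of the family, with mean FPKM of 14.4, 12.8 and 12.7, followed by Slc4a8 with 11.3 and Slc4a11 with 11.1. These means were close beside the spread of the libraries, since that of Slc4a5 had an SD of 1.38. Slc4a2 (AE2), the chloride and bicarbonate exchanger that lets bicarbonate out of the cell, had 475 and 663 reads in the control and 477 and 614 with lactate, a log2 fold change of −0.14 with overlapping groups. Slc4a8 had 0.16 and Slc4a3 0.18, and leaving out single libraries took Slc4a3 from −0.037 to 0.40. Slc4a4 and Slc4a9 had 0.65 and 0.59 on 21 to 52 reads per library, and for both the lactate libraries were higher. Slc4a1, the anion exchanger of red blood cells, lay just above the filter at 18 and 17 reads in the control and 16 and 18 with lactate, and Slc4a10, a neuronal carrier, lay below it with 0 and 1 against 2 and 2.

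**Figure D4:**
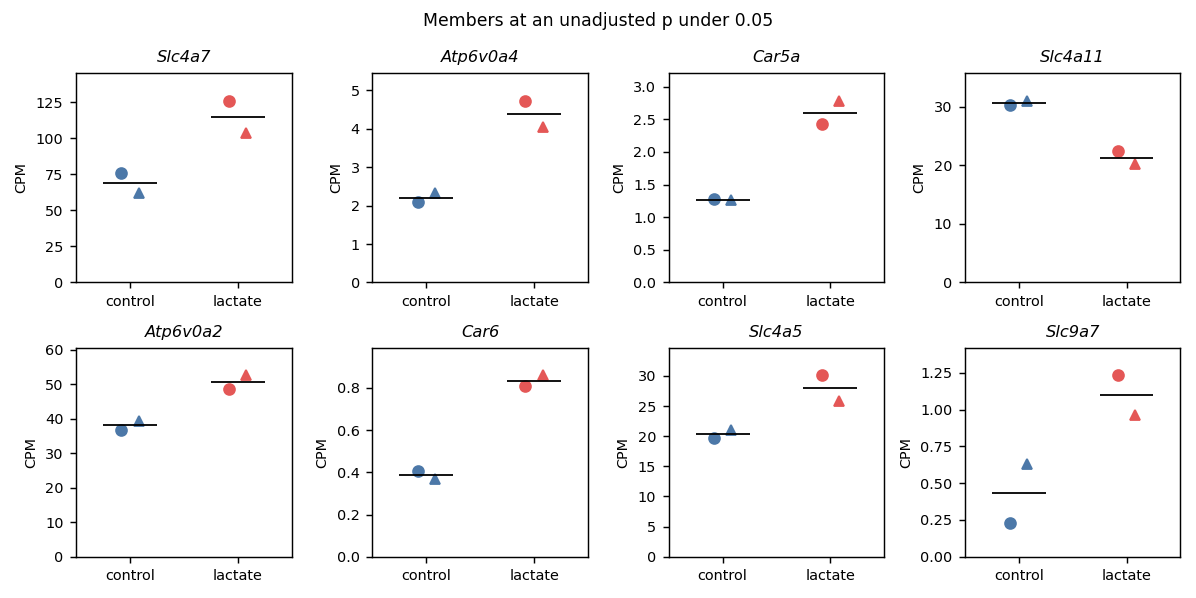
CPM in each library for 8 of the 9 members at an unadjusted p under 0.05 in edgeR, ordered by p, with circles for libraries numbered 1, triangles for those numbered 2 and a line at the mean of each group. In all 8 panels the control and lactate points do not overlap, and Slc4a11 is the one that is lower with lactate.

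In the carbonic anhydrase family the most expressed genes had values near 0, and the larger values were those of genes with few reads. Car2, the fast cytosolic enzyme, and Car13, another cytosolic enzyme, made up most of the RNA, since together with Car11 they held 85.7% of the family's control FPKM. Car2 had 613 and 601 reads in the control and 628 and 705 with lactate, a log2 fold change of 0.05 ± 0.14 (SE). Car13 had 485 and 551 reads in the control and 638 and 528 with lactate, a log2 fold change of 0.10 ± 0.17 (SE). Car11, a member without enzyme activity, had 84 and 71 reads in the control and 92 and 71 with lactate, which gave −0.01. The groups overlapped for all 3 genes. Car8, also without activity, had 0.09 on 177 to 212 reads per library.

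Car5a, a mitochondrial carbonic anhydrase (chromosome 8, 121916126 to 121944904), had 22 and 24 reads in the control and 45 and 55 with lactate, a log2 fold change of 1.04 ± 0.26 (SE, adjusted p = 0.0942, edgeR). Its groups did not overlap, but the value is uncertain. BC048644, which overlaps Car5a on the opposite strand, had 23 and 30 reads in the control and 76 and 77 with lactate, a log2 fold change of 1.45 (adjusted p = 0.0526, edgeR). RSEM assigned Car5a 7 and 11 expected counts in the control and 15 and 24 with lactate, Gm20388 also overlaps it on the opposite strand with 1181 to 1433 reads, and the sources do not say whether counting used strand. Car5b, the other mitochondrial form, had 0.01 on 14 to 17 reads.

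Car6, the secreted enzyme of saliva (chromosome 4, 150187015 to 150201332), had 7 and 7 reads in the control and 15 and 17 with lactate and lay just above the filter. The log2 fold change was 1.10 ± 0.37 (SE, adjusted p = 0.153, edgeR). Car12 and Car14, which sit in the cell membrane with the enzyme outside, had −0.26 and −0.50. Car14 had 30 and 22 reads in the control and 21 and 18 with lactate, overlaps Aph1a on the opposite strand and received 3 and 0 expected counts in the control and 3.06 and 7.07 with lactate from RSEM, so its direction is uncertain. Car7 had 0.32 on 13 to 26 reads. Car4, the anchored surface enzyme of lung and kidney, lay just below the filter at 8 and 2 reads in the control and 9 and 14 with lactate. Car15 had 11 and 7 reads in the control and 2 and 3 with lactate, so both lactate libraries were lower, and it was not tested. Gm20518 overlaps Car15 on the same strand. RSEM assigned Car15 5.47 and 4 expected counts in the control and 3 and 3.61 with lactate, so its level is uncertain. Car3 had 2 to 10 reads per library, and Car1 and Car10 had none.

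Car9, the surface enzyme known as a target of hypoxia-inducible factors and left out of the members, had 6 and 18 reads in the control and 11 and 12 with lactate. Slc16a1 (MCT1), a carrier of lactate with a proton, had 2433 and 3092 reads in the control and 2552 and 3304 with lactate, a log2 fold change of 0.01. Slc16a3 (MCT4), known for lactate export, had 1767 and 1952 reads in the control and 589 and 1011 with lactate, a log2 fold change of −1.31 ± 0.23 (SE, adjusted p = 0.0563, edgeR, and 2.63e-05 in DESeq2, whose call it passed).

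Among 26 further acid-base transporters, 20 were tested and 1 was called, where 0.900% of all genes tested were called. Atp12a, the non-gastric pump that exchanges protons for potassium, rose from 45 and 65 reads in the control to 222 and 239 in the lactate libraries. The level was 3.01 ± 0.582 CPM in the control and 12.0 ± 0.122 CPM with lactate (SD, n = 2), a log2 fold change of 1.99 ± 0.22 (SE, adjusted p = 0.0346, edgeR). Leaving out single libraries gave values from 1.79 to 2.20, and RSEM assigned 48 and 60 expected counts in the control and 238 and 235 with lactate. Of the 20 genes, 17 were higher and 3 lower, where 9522 of all 18661 genes tested were higher and 9139 lower. Their median was 0.22 on the log2 scale, beside 0.01 over all genes tested. Clcn5, a chloride and proton exchanger of endosomes, had 770 and 841 reads in the control and 1338 and 1381 with lactate. Its log2 fold change was 0.68 ± 0.12 (SE, adjusted p = 0.0578, edgeR, and 0.0280 in DESeq2, below 2-fold). Slc9b1, Emb and Ostm1 had 0.51, 0.41 and 0.38 at an unadjusted p under 0.05. The proton channel gene Hvcn1 had −0.39.

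**Figure D5:**
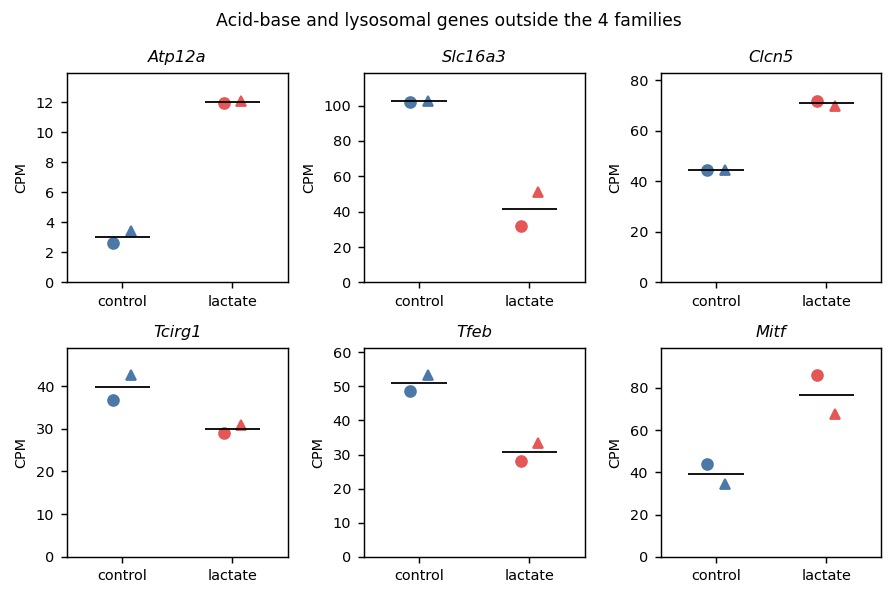
CPM in each library for 6 genes outside the 4 families, with circles for libraries numbered 1, triangles for those numbered 2 and a line at the mean of each group. Atp12a, Clcn5 and Mitf are higher in both lactate libraries and Slc16a3, Tcirg1 and Tfeb are lower, and Atp12a is the only one of the 6 that edgeR called.

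Partners of the V-ATPase went both ways. Of 22 symbols for assembly factors, accessory subunits and the Ragulator complex, 21 matched and 20 were tested, with 9 higher, 11 lower and a median log2 value of −0.06, and 0 were called by edgeR or DESeq2. Beyond Tcirg1, those at an unadjusted p under 0.05 were Rnasek at −0.73, Tbc1d24 at −0.47 and Dmxl2, of the complex that assembles the pump, at 0.35. The accessory subunits Atp6ap1 and Atp6ap2 had 0.21 and 0.14. Of 18 partners of the exchangers and carbonic anhydrases, 15 were tested, 9 were higher and 6 lower, and 0 were called by edgeR or DESeq2. At an unadjusted p under 0.05, 0 of the 15 were higher (beside 11.7% of all genes tested) and 2 lower (beside 11.4%). The scaffold genes Ezr and Slc9a3r1 (NHERF1), which tie exchangers to the cytoskeleton, had −0.91 and −0.71, with adjusted p-values of 0.0903 and 0.0640 in edgeR. In DESeq2 these were 0.00621 and 0.0263, with changes below 2-fold. Slc9a3r1 had 774 and 937 reads in the control and 517 and 586 with lactate, which did not overlap.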

How the data were processed

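Per the labels, reads were trimmed with cutadapt 1.16 and aligned with STAR to mm10, and the study's methods name GENCODE release M23 and counting in exons by STAR. The authors deposited raw counts per gene without normalization, with 1153 rows of transposable element families that were left out here and held 7.36% to 9.41% of all counts. The authors also deposited RSEM expected counts, TPM and FPKM for each library. Whether counting used strand is not given in the sources used here. Groups came from the treatment label.

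The counts were tested with edgeR 4.0.16 under R 4.3.3 (filterByExpr, TMM, quasi-likelihood test in its legacy form, no replicate term), which differs from the DESeq2 of the study. The standard error is the size of the log2 fold change divided by the root of F. CPM are scaled by TMM, and SDs are over 2 libraries. DESeq2 1.42.0 and limma 3.58.1 were alternatives, as were other scalings, filters and units, a replicate term and leaving out each library. The test was checked on simulated counts. Expected counts were rounded for edgeR. Positions are from GENCODE release M21 on GRCm38.

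The members and lists were chosen with earlier results of these data known. Reads per library are given for members at an unadjusted p under 0.05, the 3 members of each family with the highest control FPKM and those next to the filter, and other values by range. 2 members that the counts and medians include are not reported here by name. From the other lists the called genes, or up to 5 at an unadjusted p under 0.05, were named, with Tcirg1, Car9, Slc16a1 and Slc16a3. Atp6v0a1, Atp6v1h, Atp6v1c1, Atp6v0d1, Atp6v1g1, Slc9a5, Tfe3, Atp6ap1, Atp6ap2, Hvcn1 and the genes that overlap a member were named after their values were seen. The proteins of the carbonic anhydrases were not analysed here.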

Additional observations from a re-analysis of the deposited data

How the results depend on the processing

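No group had the 4 libraries that a test for outlying samples needs. Each group had 2 libraries, and single libraries moved the values of members with many and with few reads. Over 625 refits of the 42 members, 70 changed sign, in 21 members, and 4 gained a call.

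Called genes numbered 103 higher and 65 lower. They numbered 213 and 162 with DESeq2, 27 and 17 with RSEM expected counts, 482 and 325 without the filter, 761 and 395 with the replicate block, and 0 and 0 with limma-trend at either pseudocount. With library totals alone, 108 were higher and 40 lower, so the share called higher went from 61.3% to 73.0%. Leaving out 1 library gave 45 to 502 and 39 to 367. The replicate block pairs libraries that the labels link only by a number. Deviations of same-numbered libraries from their group means correlated at 0.561 over 18661 genes. Their mitochondrial shares were also close, at 5.48% and 5.72% for those numbered 1 and 2.43% and 2.82% for those numbered 2. Whether same-numbered libraries share a batch was not tested. With the block 3 members (Car5a, Car6 and Slc9a7) were called higher in place of 0. Car6 and Slc9a7 were tested only through their lactate libraries, and the value of Car5a is uncertain. At an adjusted p under 0.10, 20 members were higher and 2 lower, and as many were at an unadjusted p under 0.05. The shares of all genes at these limits were not taken with the block, so these counts have no background here.

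Members called higher ranged from 0 to 1 (Atp6v0a4, without lactate replicate 2) and lower from 0 to 0 with 1 library left out, those at an adjusted p under 0.10 from 0 to 2 and from 0 to 0, and those at an unadjusted p under 0.05 from 5 to 6 and from 0 to 2. In place of 3 higher at an adjusted p under 0.10, 1 was found with DESeq2, 1 with expected counts and 0 with limma-trend, and in place of 0 lower, 1 without the filter. In place of 8 higher at an unadjusted p under 0.05, 4 were found with DESeq2 and 5 or 4 with limma-trend at a pseudocount of 0.1 or 1. In place of 1 lower, 0 were found with limma-trend and 2 without the filter. The shares of all genes at an adjusted p under 0.10 and at an unadjusted p under 0.05 were not taken in these refits. The counts of members at these limits therefore have no background here.

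The median of Slc9a was 0.0909 and that of Slc4a 0.28 without the filter, and that of Slc4a 0.0728 in expected counts. With 1 library left out the medians ranged from 0.0025 to 0.32 for Atp6v, 0.15 to 0.37 for Slc9a, 0.13 to 0.33 for Slc4a and −0.10 to 0.17 for Car. In raw counts the shares of subunit a in control and lactate libraries were 43.8% and 46.5% for Atp6v0a1, 26.8% and 31.9% for Atp6v0a2 and 27.9% and 18.8% for Tcirg1. In FPKM, the shares with 1 library left out ranged from 35.1% to 42.1% and 47.2% to 48.6%, 15.2% to 16.9% and 21.7% to 22.4%, and 39.8% to 48.6% and 26.8% to 27.2%. The cause of these differences was not tested.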
